A study of Homo sapiens with 6 samples.

Results

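The mitochondrial carriers of solute carrier family 25 (SLC25) were described in RNA from NCI-H1975 cells, an established human lung adenocarcinoma (LUAD) line. Alternative splicing (AS) was read in 3 libraries of cells transfected for 48 h with 2 µg per well of the SAM68 plasmid (pcDNA3.1-SAM68) and in 3 libraries of cells given the empty plasmid in the same way, here called control. Both groups carry a plasmid and went through lipofectamine, and no untransfected cells were compared. SAM68, the product of KHDRBS1, is an RNA-binding protein that takes part in the choice of splice sites, and the comparison asks which splicing events differ when it is raised.

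An event is a choice between 2 ways of joining the exons of a gene, and was included here when its gene symbol was SLC25A followed by a number and it had a mean of at least 10 junction reads over the 6 libraries. Of 290 events listed in 38 SLC25 genes, 256 events in 37 genes met this rule, against 66377 events over all genes, and 34 events, among them the events listed for SLC25A41, fell below it. The 256 events comprise 176 skipped exons (SE), 43 pairs of mutually exclusive exons (MXE), 20 alternative 3′ splice sites (A3SS), 10 alternative 5′ splice sites (A5SS) and 7 retained introns (RI). Many of these events share junctions, so they are not independent of each other.

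SLC25 proteins are built from repeats of a pair of membrane helices and exchange metabolites across the inner mitochondrial membrane, which is otherwise closed to them. They bring phosphate and ADP to the ATP synthase, export ATP and citrate, and move amino acids, nucleotides, cofactors and iron. A few members work elsewhere, such as SLC25A17 in the peroxisome and SLC25A46 on the outer mitochondrial membrane. The phosphate carrier SLC25A3 is the textbook case of alternative splicing in the family: exon 3A is used mainly in heart and skeletal muscle, and exon 3B in most other tissues.

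Each library held 16951876 to 19737729 junction reads over the SE events, and each event's level was given as PSI (percent spliced in), the share of the form with the exon or the longer exon after division of the reads by the effective length of each form. The targeted gene came first: KHDRBS1 had 311.5, 328.8 and 316.3 junction reads per 1e+06 gene reads (rpm) in controls, and 1232, 1261 and 1277 rpm with SAM68. Its log2 fold change was 1.98 ± 0.047 (SE, n = 3 and 3; limma, adjusted p = 1.15e-21), with no overlap between the groups. Of the 6 epithelial markers looked up, the keratin genes KRT7, KRT8 and KRT18 had events, and no leukocyte, fibroblast, endothelial or lung lineage marker had one. The tables list splicing events rather than all genes, so a missing marker is not a level of 0. All 3 keratins had an unadjusted p under 0.05 and none an adjusted one (limma, adjusted p = 0.383, 0.254 and 0.306). KRT7 was at 3.03 to 4.49 rpm in controls and 1.26 to 2.20 rpm with SAM68, and KRT18 at 471 to 493 rpm in controls and 521 to 531 rpm with SAM68, both without overlap. KRT8 was at 520 rpm in 1 control and at 229.7 to 253 rpm in the other 5 libraries. The part of these differences in the results below was not tested. In such bulk samples, fewer cells of a kind and less RNA per cell cannot be told apart.

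The sequences below are those on which the splicing results turn, read from the GRCh38 genome, the build of the deposited coordinates, on the strand of each gene. The alternative exons 3A and 3B of SLC25A3 lie on chromosome 12, plus strand, at chr12:98595433-98595557 for exon 3A (125 bases) and at chr12:98595727-98595848 for exon 3B (122 bases). They encode the same stretch of the phosphate carrier, and capitals mark the bases that are alike in the alignment of the pair.
SLC25A3 exon 3A: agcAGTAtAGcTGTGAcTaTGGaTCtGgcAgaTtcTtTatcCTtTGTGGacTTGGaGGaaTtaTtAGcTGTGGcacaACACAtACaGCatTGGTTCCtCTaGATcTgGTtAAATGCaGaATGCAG
SLC25A3 exon 3B: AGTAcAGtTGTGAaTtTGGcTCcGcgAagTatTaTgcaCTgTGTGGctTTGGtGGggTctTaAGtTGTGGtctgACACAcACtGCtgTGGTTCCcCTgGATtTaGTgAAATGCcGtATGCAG
The exons were identical at 81 of 122 aligned bases (66.4%), and 3A held 3 further bases at its start. All 3 annotated transcripts with 3A and all 6 with 3B are protein coding, with the exon wholly inside the coding sequence. The difference in length is thus 1 codon, and the choice leaves the frame as it is.

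SLC25A39 and SLC25A40 are homologues that carry glutathione into mitochondria, and each has an alternative acceptor (3′ splice site). The next pair of sequences shows the segment between the outer and the inner acceptor in capitals, with 20 bases on either side. The SLC25A39 window is chr17:44322509-44322572 and the SLC25A40 window is chr7:87856332-87856409, both on the minus strand.
SLC25A39 acceptor segment: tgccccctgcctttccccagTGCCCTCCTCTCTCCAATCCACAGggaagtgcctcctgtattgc
SLC25A40 acceptor segment: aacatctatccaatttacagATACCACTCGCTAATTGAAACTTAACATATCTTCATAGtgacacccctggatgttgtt
The SLC25A39 segment has 24 bases, lies in coding sequence and keeps the frame. The SLC25A40 segment has 38 bases and, in both annotated nonsense-mediated decay transcripts that hold it, meets an in-frame TAA at its bases 12 to 14, after 36 codons. Nonsense-mediated decay (NMD) is the pathway that degrades transcripts with an early stop codon.

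SLC25A36, a carrier of pyrimidine nucleotides, has 2 alternative exons on chromosome 3, plus strand, which are annotated in NMD transcripts and not in protein-coding ones. Each is shown from its first base to its first in-frame stop codon, in capitals, at chr3:140966348-140966373 and chr3:140966934-140966968.
SLC25A36 first alternative exon: aacacaagaaattaaatacaaaaTAA
SLC25A36 second alternative exon: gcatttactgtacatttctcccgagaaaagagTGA
The whole exons have 87 and 103 bases.

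No SLC25 event passed the call of an adjusted p under 0.05 with a PSI difference (∆PSI, SAM68 minus control) of at least 10 points. The same rule called 0.0256% of all events tested (17 of 66376). The smallest adjusted p of the 256 events was 0.407 (quasi-binomial model moderated with limma). At an unadjusted p under 0.05 there were 12 SLC25 events (4.69%), against 8.42% of all events, so the SLC25 share lay below the background. The 12 fell into 9 with higher and 3 with lower PSI in SAM68 libraries, with differences of 0.0854 to 8.37 points. In 9 SLC25 events (3.52%) the 3 SAM68 libraries did not overlap the 3 controls, 7 higher and 2 lower, against 6.1% of all events. With 3 libraries against 3, an exact permutation test of a single event cannot give a two-sided p under 0.1.

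PSI was higher in SAM68 libraries for 117 events and lower for 139, and 206 of the 256 lay within 5 points of no difference. The median size of the difference was 1.49 points, against 1.24 points over all events, at a similar depth (medians of 113 and 111 reads). Of the 21 events with a difference of 10 points or more, 3 had at least 50 reads. These were an MXE and an SE event of SLC25A33 and the second alternative exon of SLC25A36.

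**Figure D1:**
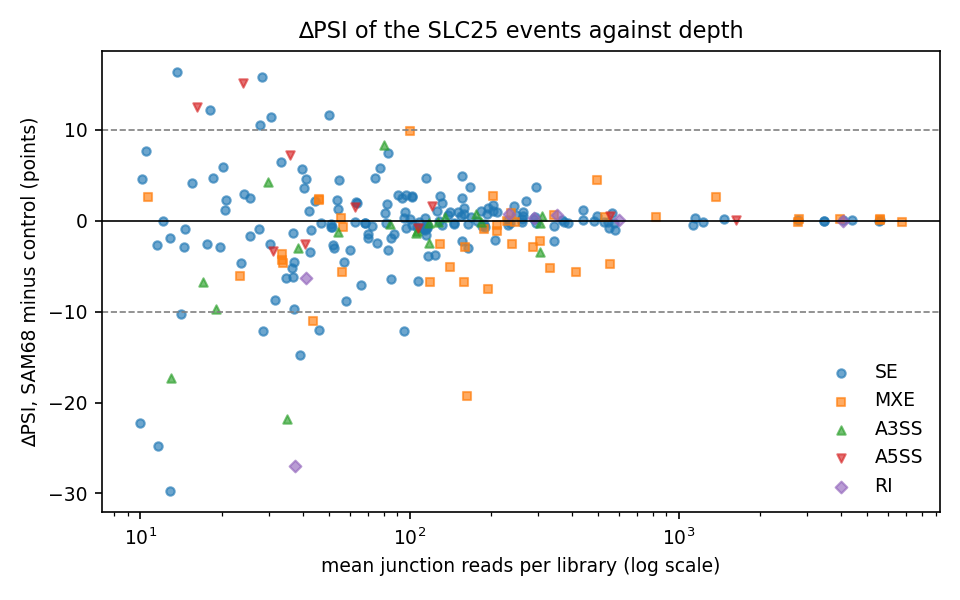
∆PSI (SAM68 minus control, percentage points) of the 256 SLC25 events against their mean junction reads per library on a log scale, with 1 point per event, coloured by event type, and dashed lines at 10 points either side of 0. Most of the 21 events beyond the lines have few reads, and 3 of them have 50 reads or more.

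The carriers can also be grouped by what they move. The 11 measured genes for nucleotides and cofactors held 96 events, of which 1 had an unadjusted p under 0.05, and the 12 genes for amino acids, glutathione and related solutes held 85 events with 8 (9.41%, against 8.42% of all events). Those 8 came from SLC25A13, SLC25A38, SLC25A40 and SLC25A44 with 2 each, some of which share reads. The phosphate carrier SLC25A3 held 14 events with 1, and the 5 genes for di- and tricarboxylates 25 events with 1. The iron carriers SLC25A28 and SLC25A37 held 7 events, the uncoupling-type carriers SLC25A14, SLC25A27 and SLC25A30 held 13, and neither group had an event below that limit. SLC25A16, SLC25A43 and SLC25A46 held the remaining 16 events, with 1. No group had a called event.

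In SLC25A3, the choice between the third exons lay almost wholly with 3B in every library. Reads joining exon 3A numbered 8, 10 and 12 in controls and 22, 10 and 17 with SAM68. Reads joining exon 3B numbered 5813, 5806 and 6009 in controls and 5953, 5318 and 4643 with SAM68. The lowest SAM68 library had as many 3A reads as the middle control, so the groups overlapped. The share of 3A was 0.136, 0.170 and 0.197% in controls and 0.364, 0.185 and 0.361% in SAM68 libraries. Its means were 0.168 ± 0.0306% and 0.303 ± 0.102% (SD, n = 3 each). Here and below, 95% intervals are those of the difference in PSI of each group's pooled reads, which can differ from the printed difference of group means. The difference was 0.136 points (95% interval -0.0189 to 0.290; limma-moderated p = 0.0780, adjusted p = 0.644, exact permutation p = 0.2).

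The other events of this region gave the same picture of 3B use. Exon 2 was joined straight to 3B by 4063, 4231 and 4209 reads in controls and 4419, 4011 and 3527 with SAM68. Transcripts that left out both 3A and 3B had 2, 1 and 0 reads in controls and 0 in each SAM68 library. A count of 0 allows up to 3 reads here, so a difference was not detectable at this depth. Skipping of exon 4 had 0, 4 and 2 reads in controls and 0 in each SAM68 library, against 3811 to 4856 reads that joined it (limma-moderated p = 0.0324, adjusted p = 0.565, exact permutation p = 0.4).

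SLC25A40 had the widest difference among the 12 events with an unadjusted p under 0.05, at the acceptor shown above. Reads of the longer form, with the 38 bases, numbered 7, 12 and 6 in controls and 14, 16 and 17 in SAM68 libraries. Reads of the shorter form numbered 75, 79 and 67 in controls and 62, 57 and 69 with SAM68. PSI of the longer form was 6.77, 10.6 and 6.52% in controls and 14.9, 17.9 and 16.1% with SAM68. All 3 SAM68 libraries lay above all 3 controls. The means were 7.95 ± 2.27% and 16.3 ± 1.505% (SD, n = 3 each), 8.37 points apart (95% interval 1.11 to 15.3). The event did not pass the adjustment over all A3SS events (limma-moderated p = 0.0241, adjusted p = 0.668, exact permutation p = 0.1, the smallest possible).

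Exon 11 of SLC25A40 (81 bases, chr7:87836730-87836810) gave the smallest p of the family. Reads that skip it numbered 9, 7 and 1 in controls and 0, 1 and 0 in SAM68 libraries. Its PSI was 92.3, 92.8 and 99.0% in controls and 100, 98.8 and 100% with SAM68, so the highest control exceeded the lowest SAM68 library. The difference was 4.87 points (95% interval 1.54 to 8.49; limma-moderated p = 0.00536, adjusted p = 0.407, exact permutation p = 0.2). An untranslated exon near the 5′ end of SLC25A40 (98 bases) was an intermediate event. It had PSI of 25.6, 24.95 and 33.9% in controls and 36.9, 32.4 and 22.6% with SAM68, with overlap in both directions.

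In SLC25A39, the longer form with the 24-base segment, which is the one in the canonical transcript, was the minor form in every library of the deeper event. Its reads numbered 52, 73 and 78 in controls and 69, 57 and 51 with SAM68, and the shorter form had 223, 244 and 219 in controls and 279, 215 and 264 with SAM68. PSI was 16.5, 20.3 and 23.2% in controls and 17.4, 18.4 and 14.1% with SAM68. The means were 20.01 ± 3.35% and 16.6 ± 2.24% (SD, n = 3 each), and the ranges overlapped. The difference was -3.40 points (95% interval -8.34 to 1.27; limma-moderated p = 0.141, adjusted p = 0.678, exact permutation p = 0.3). A second A3SS event with the same segment but other flanking splice sites had few reads, with 13, 8 and 20 of the longer form in controls and 14, 7 and 13 with SAM68, and there the longer form was the major one in 5 of 6 libraries. The glutathione carrier homologues were thus both read with 2 acceptors, and neither difference passed the adjusted test.

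**Figure D2:**
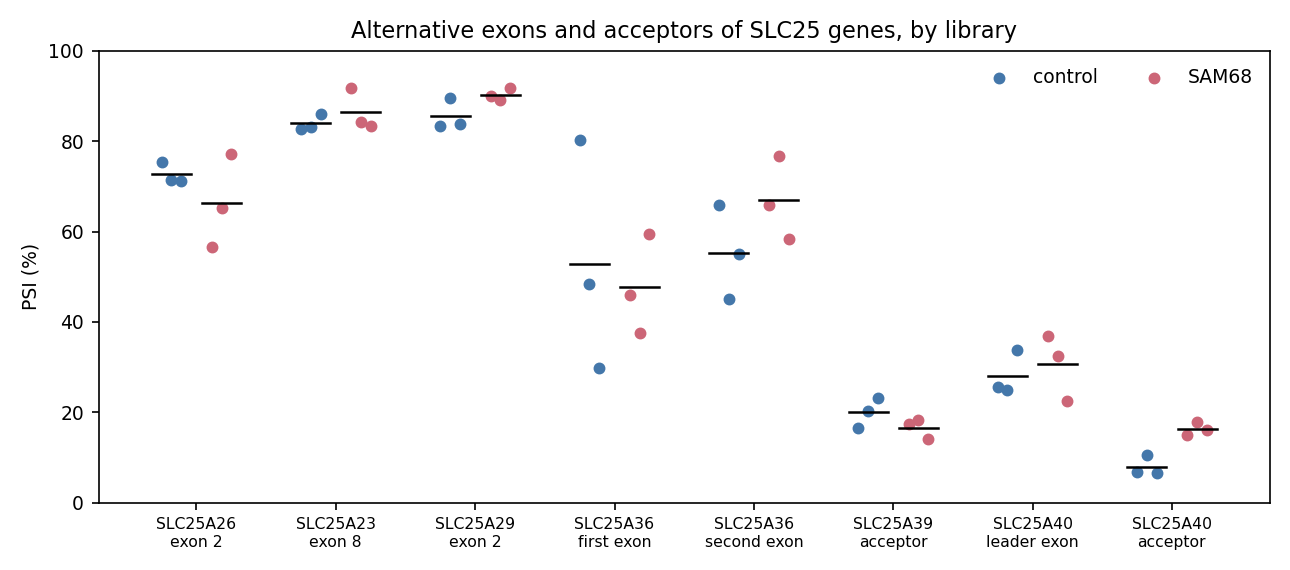
PSI (percent) of 8 alternative SLC25 events in each library, with control and SAM68 libraries as points in separate colours and a bar at each group mean. The SLC25A40 acceptor is the event here in which all 3 SAM68 libraries (14.9 to 17.9%) lie above all 3 controls (6.52 to 10.6%), while the groups overlap in the other 7.

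In the most-read event of each, the SLC25A36 exons annotated for NMD were spliced in at intermediate levels, with a wide spread between libraries. Each exon is also listed with other flanking splice sites, so this PSI is not its inclusion over all transcripts of the gene. The first had PSI of 80.4, 48.5 and 29.8% in controls and 45.9, 37.6 and 59.5% in SAM68 libraries, so the controls alone spanned the whole SAM68 range. The second had 65.9, 45.02 and 55.1% in controls and 65.9, 76.6 and 58.3% with SAM68. The difference for the second exon was 11.7 points (95% interval -2.72 to 29.3; limma-moderated p = 0.103, adjusted p = 0.565, exact permutation p = 0.2), and the groups overlapped. Exon 2 of SLC25A36, which belongs to the canonical transcript, had skipping reads of 0, 0 and 0 in controls and 1, 3 and 0 with SAM68. It had an unadjusted p of 0.0312 (limma-moderated, adjusted p = 0.564).

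SLC25A33, the other pyrimidine nucleotide carrier, held the 2 deepest events with a difference above 10 points, and both rested on 1 library. The gene lies on chromosome 1 from 9539465 to 9585173, plus strand, and has 1 annotated transcript with 7 exons. Its junctions could be read one by one from sums and differences of the event counts. The junction of exon 2 to exon 3 had 96, 106 and 117 reads in controls and 0, 95 and 84 reads in the SAM68 libraries. The same 6 values came out of the SE events and of an MXE event. Both count the same junction reads, so this match is not an independent measurement.

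The library at 0 had reads at each of the other junctions of SLC25A33, the fewest of the 6 libraries at some and the most at others. At the junction of exons 1 and 2 the controls had 303, 348 and 312 reads and the SAM68 libraries 242, 277 and 258. At the junction of exons 3 and 4 the controls had 86, 134 and 91 reads and the SAM68 libraries 64, 108 and 108. At the junction of exons 6 and 7 the controls had 304, 336 and 235 reads and the SAM68 libraries 377, 273 and 340. The missing reads did not appear as skipping of exon 3, which had 1, 0 and 0 reads in controls and 1, 2 and 0 with SAM68. PSI of exon 3 in the MXE event was 55.2, 53.5 and 62.4% in controls and 0.967, 60.0 and 52.3% in SAM68 libraries, and the other 2 SAM68 libraries lay inside or just below the control range. The cause of the missing junction was not tested.

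**Figure D3:**
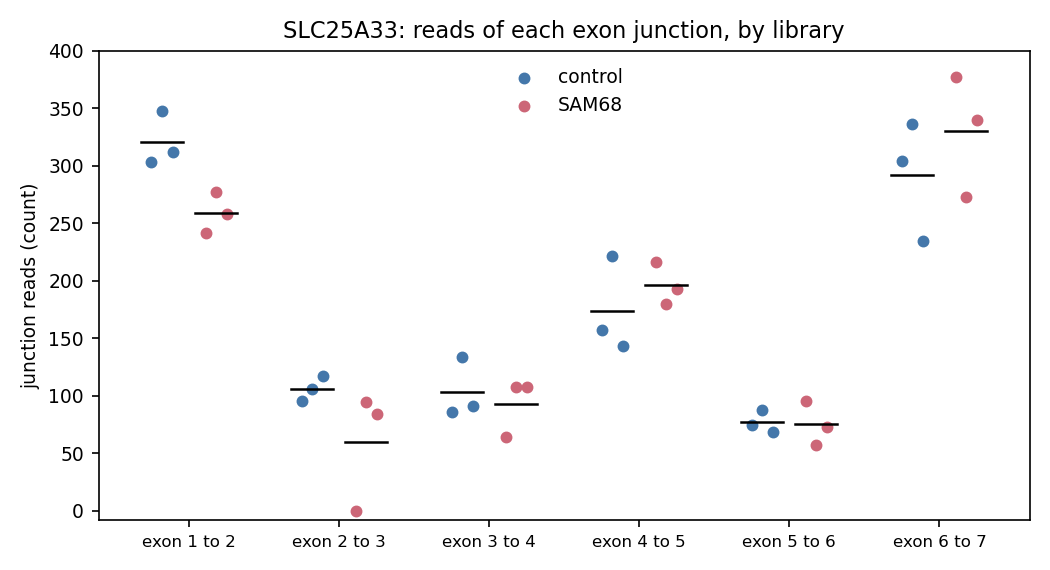
Reads of each of the 6 exon junctions of SLC25A33 by library (counts), with control and SAM68 libraries as points in separate colours and a bar at each group mean. At the junction of exons 2 and 3 a single SAM68 library has 0 reads while the other 5 libraries have 84 to 117, and the same library is the highest at the junctions of exons 5 to 6 and 6 to 7.

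Forms with 0 reads in part of a group were also seen in other SLC25 events. In 14 SLC25 events (5.47%) a form had 0 reads in at least 1 library and at least 10 in another of the same group. Over all events the share was 4.34%. Several of the 12 events with an unadjusted p under 0.05 also rested on few reads of the minor form in 1 or 2 libraries. For the glycine carrier SLC25A38, the shorter A3SS form had 9 reads in 1 SAM68 library and 0 in the other 5 libraries (limma-moderated p = 0.0203, adjusted p = 0.668, exact permutation p = 1). An SE event of SLC25A38 had 5 skipping reads in 1 control and 0 elsewhere (limma-moderated p = 0.0482, adjusted p = 0.565, exact permutation p = 1).

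Citrin, the aspartate/glutamate carrier encoded by SLC25A13, had 2 such events. Skipping of exon 5 had 3, 5 and 0 reads in controls and 0 in each SAM68 library, against 385 to 507 inclusion reads (limma-moderated p = 0.00977, adjusted p = 0.462, exact permutation p = 0.4). Skipping of exon 4 ran the other way, with 5, 0 and 1 reads in controls and 9, 3 and 7 with SAM68 (limma-moderated p = 0.0476, adjusted p = 0.565, exact permutation p = 0.2). The highest control lay inside the SAM68 range for exon 4, and 1 control matched the SAM68 libraries for exon 5.

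The carriers SLC25A44, SLC25A43 and SLC25A11 complete the 12 events. SLC25A44, a carrier of branched-chain amino acids, had exon 3 at 100, 94.3 and 92.0% in controls and 100, 98.6 and 98.9% with SAM68. A longer form of that exon shares its skipping reads of 0, 6 and 6 in controls and 0, 1 and 1 with SAM68, so the 2 events of SLC25A44 are largely the same reads. The orphan carrier SLC25A43 had a noncoding exon at 4.67, 1.61 and 1.89% in controls and 5.43, 12.6 and 3.70% with SAM68, and the ranges overlapped. The oxoglutarate carrier SLC25A11 had a retained intron with 0, 0 and 1 reads in controls and 6, 2 and 1 with SAM68, against 201 to 266 spliced reads (limma-moderated p = 0.0266, adjusted p = 0.536, exact permutation p = 0.1).

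Among the well-read alternative exons of other carriers, group ranges overlapped. Exon 2 of SLC25A26, the carrier of S-adenosylmethionine (157 bases, chr3:66236544-66236700), had PSI of 75.4, 71.4 and 71.1% in controls and 56.5, 65.1 and 77.1% with SAM68. The controls lay within a few points of each other, and the SAM68 libraries lay on both sides of them (∆PSI -6.38 points, 95% interval -20.1 to 4.91; limma-moderated p = 0.223, adjusted p = 0.565, exact permutation p = 0.4). Exon 8 of SLC25A23, a calcium-regulated ATP-Mg/phosphate carrier (168 bases, in frame), had 82.7, 83.1 and 86.0% in controls and 91.9, 84.1 and 83.4% with SAM68. Exon 2 of SLC25A29, a carrier of basic amino acids (44 bases), had 83.4, 89.6 and 83.8% in controls and 89.9, 89.2 and 91.7% with SAM68. The SLC25A29 values lay above the control range in 2 SAM68 libraries and inside it in the other, 4.69 points higher on average (95% interval -3.83 to 12.7; limma-moderated p = 0.281, adjusted p = 0.565, exact permutation p = 0.2).

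Most SLC25 exons were close to fully used or close to unused. The 176 SE events concerned 132 different exons, of which 77 had a mean PSI of at least 95%, 26 had at most 5% and 19 lay between 10 and 90%. Of the 87 exons in a canonical transcript, 72 were at 95% or above, and all 26 exons at 5% or below were among the 45 outside it. In 38 of the 43 MXE events an annotated transcript holds both exons, so that PSI is there a balance of reads over neighbouring exons and not a choice. For the SLC25A3 pair of 3B and exon 4, for example, this balance was 60.4, 59.5 and 59.3% in controls and 58.2, 62.8 and 57.6% with SAM68. Among the intermediate events named by rule, the widest such balances between canonical exons were in SLC25A16 and SLC25A23, both narrower than the SLC25A33 MXE event above. Exon 2 of SLC25A16 against its exon 3 had 54.6, 65.6 and 62.5% in controls and 72.4, 77.3 and 62.7% with SAM68 (9.90 points, limma-moderated p = 0.115, adjusted p = 0.698, exact permutation p = 0.2). Exon 8 of SLC25A23 against its exon 9 had 35.4, 32.7 and 38.4% in controls and 29.004, 33.3 and 21.7% with SAM68 (-7.51 points, limma-moderated p = 0.0819, adjusted p = 0.649, exact permutation p = 0.2). In SLC25A16 the lowest SAM68 library lay inside the control range, and in SLC25A23 the highest did. Without the third SAM68 library the SLC25A23 difference was -4.35 points, and over all 6 libraries left out in turn it was -10.2 to -4.35 points.

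For the 34 events with at least 50 reads and an intermediate PSI, the 95% interval of the difference was taken. It reached 1.90 to 17.3 points either side of the estimate (median 8.89), so smaller differences were not detectable. These intervals are not adjusted for the number of events, so larger differences could also miss the call.

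Bases near the exons were searched for short motifs in the 200 bases on either side of each exon, on the transcript strand. SAM68 is known to bind motifs such as TAAA. A longer version, TTTAAA, was searched as well, and TAGGG is of the kind that hnRNP A1 binds. Every match to TTTAAA is also one to TAAA. The longer motif stood upstream of 26 of the 132 SLC25 exons (19.7%) and of 21.43% of all tested exons, and downstream of 23.48% and 20.94%. TAGGG stood upstream of 15.91% of the SLC25 exons and 12.54% of all tested exons, and downstream of 9.85% and 14.42%. The short motif TAAA stood upstream of 58.33% and 59.74%, and downstream of 63.64% and 60.38%. On the other strand, on either side, the shares were 36.36% and 35.72% for TTTAAA, 81.82% and 81.61% for TAAA and 19.7% and 22.18% for TAGGG. A match is a run of letters and not a measured binding site.

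Junction reads also give a measure of how much of each gene's RNA was present, here from the most-read event of the gene. SLC25A36 was the 1 SLC25 gene of 37 (2.70%) with an adjusted p under 0.05, against 0.414% of all genes. It had 31.9, 33.3 and 31.1 rpm in controls and 22.7, 20.8 and 18.5 rpm with SAM68, and no SAM68 library reached the lowest control. Its log2 fold change was -0.63 ± 0.145 (SE, n = 3 and 3; limma, adjusted p = 0.0491, exact permutation p = 0.1). This call lay at the edge of the threshold and was lost when any of 5 of the 6 libraries was left out, being kept without the second SAM68 library (adjusted p 0.0486 to 0.249, log2 fold change -0.70 to -0.55).

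The gene value of SLC25A36 is the read total of its exon 2 event. That event and the others on canonical exons, which share reads with it, were lower with SAM68. All 5 events on exons 2 and 3 had fewer reads with SAM68 (median log2 ratio -0.64, range -0.83 to -0.43), the called one among them. Of the 12 events on other exons, 5 were lower, with a median of 0.08 (-0.33 to 0.59). This division was made after the values were seen, and events within each part share reads. Summed over its SE events, SLC25A36 had a log2 fold change of -0.35 (limma, adjusted p = 0.106).

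At an unadjusted p under 0.05 there were 4 SLC25 genes (10.8%), against 12.1% of all genes, and in 6 (16.2%) the groups did not overlap, against 16.8%. Besides SLC25A36 these 4 were SLC25A11 at -0.32 (limma, adjusted p = 0.112), the mitoferrin SLC25A37 at -0.38 (adjusted p = 0.316) and the glutamate carrier SLC25A22 at 0.55 (adjusted p = 0.181), all as log2 fold changes. Both events of SLC25A11 were lower with SAM68, but only 1 of 6 events of SLC25A37 was, and 2 of 5 events of SLC25A22 were lower although its most-read event was higher. Summed over SE events, SLC25A22 had a log2 fold change of 0.004 (limma, adjusted p = 0.995). The median log2 fold change was 0.03 over the SLC25 genes and -0.03 over all genes, and 32 of the 37 lay within 0.3 of 0. The lowest value, -1.11 for SLC25A21, rested on about 10 reads per library.

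**Figure D4:**
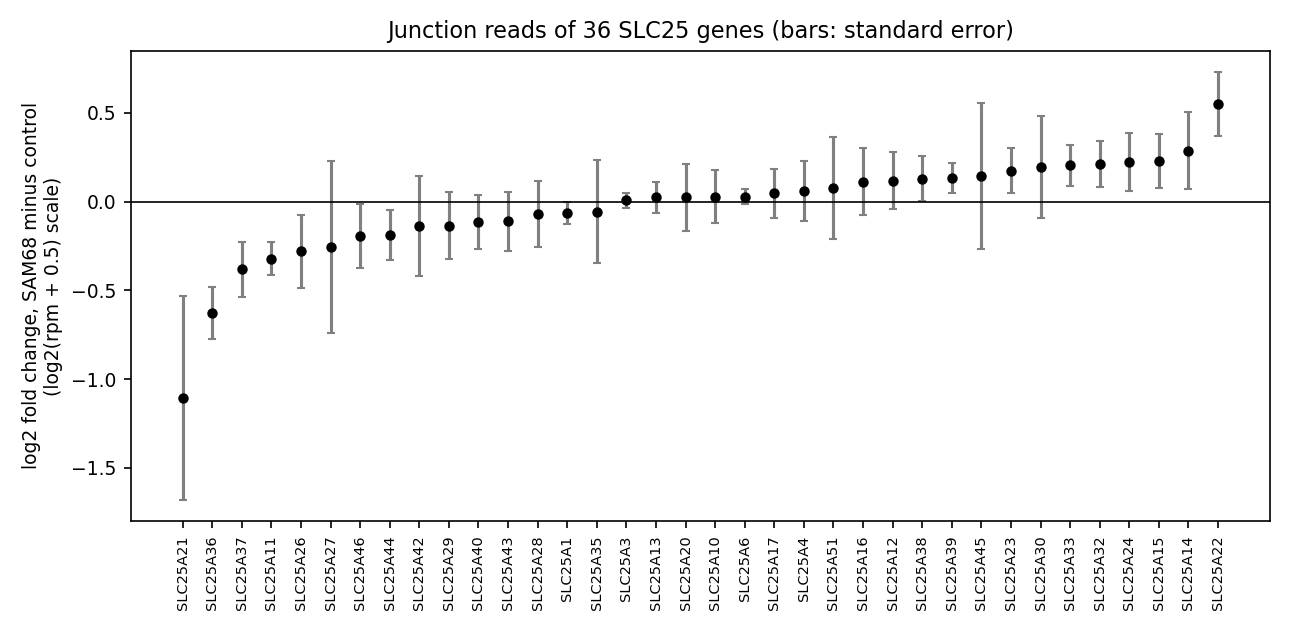
Log2 fold change (SAM68 minus control) of the junction reads of each of 36 of the 37 SLC25 genes with its standard error as a bar. Most genes lie within 0.3 of 0, and SLC25A36 at -0.63 is the gene with an adjusted p under 0.05.

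Levels were also compared per length, as reads per kilobase of effective length per 1e+06 reads of the most-read event other than MXE. SLC25 genes without a listed event have no value here. Among those with one, the phosphate carrier SLC25A3 (3397 to 4009, median 3819 over the 6 libraries) and the ADP/ATP carrier SLC25A6 (3563 to 3699, median 3657) stood highest and overlapped. The citrate carrier SLC25A1 followed at 1027 to 1104 (median 1047), apart from both. SLC25A39, SLC25A13 and SLC25A11 came next, with medians of 400, 359 and 358, and overlapped with each other in this order. SLC25A33 lay just below them at a median of 256, its highest library (291.7) close to the lowest of SLC25A11 (292.4). Below SLC25A33 neighbours in the order mostly overlapped. SLC25A45, SLC25A27 and SLC25A21 were lowest of the 37 genes. SLC25A6 has near-identical copies elsewhere in the genome, so its level is uncertain where reads could not be placed on 1 of them. How many such reads there were was not measured.

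Other genes of the same membranes were tested alongside. Of 34 genes for the calcium uniporter, pyruvate carrier, sideroflexins, porins, import machinery and related transporters, 28 had events, 155 in all, of which 0 were called and 16 (10.3%, against 8.42% of all events) had an unadjusted p under 0.05 (quasi-binomial model moderated with limma). The lowest p values were those of MCUB, an inhibitory subunit of the calcium uniporter, at -9.40 points in an MXE event (adjusted p = 0.276), and of MICU2, its calcium-sensing regulator, at 1.64 points in an SE event (adjusted p = 0.402). By junction reads, 0 of the 28 genes had an adjusted p under 0.05 in limma. At an unadjusted p under 0.05 there were 3 of them (10.7%, against 12.1% of all genes), with log2 fold changes of 0.20 for the pyruvate carrier subunit MPC2, 0.19 for the import chaperone TIMM8B and -0.34 for MICU2.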

How the data were processed

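The deposited rMATS tables hold, for each event, lists of whole-number junction counts made by the authors, 1 list for each group with 3 libraries in it. Per the submitters' processing notes, CASAVA 1.4, fastp 0.20.0 and HISAT2 2.1.0 were used with GRCh38; the rMATS version and its annotation are not given in the sources used here. The first list was taken as the control from the study's naming of the comparison, and KHDRBS1 reads were highest in the other. The lists carry no replicate numbers, so libraries are numbered by their place in a list. The study calls the libraries biological replicates. The p-values measure the spread between them, moderated towards that of all events of a type, or of all genes. An event that rests on 1 library can thus have an unadjusted p under 0.05 in the limma-moderated model. The authors' inclusion levels match the deposited counts (ratio of length-scaled counts); their p-values, adjusted p-values and level differences were not used. Libraries from other samples filled 0 columns.

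The A3SS table had count lists split over columns; 144 events were recovered from them, 131 were left out and 19 lines were blank. PSI was the inclusion count over its effective length, as a percent of that for both forms. Events averaging 10 reads or more in the 6 libraries entered a quasi-binomial model, with dispersions moderated by limma 3.58.1 (R 4.3.3) within each event type and a floor of 1, and Benjamini-Hochberg adjusted within each type. Calls needed an adjusted p under 0.05 and 10 points of ∆PSI or more. Gene reads were those of the most-read event per gene in rpm of their sum, tested with limma on log2(rpm + 0.5), which understates changes of low genes. Intervals are 95%, come from the model and are centred on the difference in PSI of the groups' pooled reads. The tests were run on simulated counts with planted changes larger than most differences reported here. That check says nothing about smaller differences. The counts are held as lists, and no negative binomial count model was fitted to them.

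Members and gene lists were chosen with earlier results of these data known. Named events were the third exons of SLC25A3, those with an unadjusted p under 0.05, and the most-read intermediate event (PSI 10 to 90%, at least 50 reads) of each gene. Of the others, the SLC25A39 acceptor, the SLC25A36 alternative exons, exon 8 of SLC25A23 and the SLC25A33 junctions were chosen after their values were seen. Exons and coding sequence were taken from GENCODE on GRCh38. The values of 1 SLC25 gene are not reported here, while counts over the family include it.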

Additional observations from a re-analysis of the deposited data

How the results depend on the processing

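No paired analysis was possible because the count lists carry no replicate numbers. The count of called SLC25 events was 0 in every setting run for events except a likelihood ratio test on pooled counts, which takes no account of the spread between libraries. That test called 1 event, the SLC25A33 MXE event with 1 library near 0 (-19.3 points, adjusted p = 0.000431), and 2 events of the other mitochondrial transport genes, both of SFXN5. It also gave adjusted p under 0.05 below 10 points for SLC25A40 exon 11 (0.00576) and acceptor (0.0473), SLC25A13 exon 5 (0.0221), the SLC25A38 A3SS event (0.0182) and the SLC25A39 MXE event (0.037). Without division by length the SLC25A40 acceptor differed by 10.1 points (adjusted p = 0.668 in the limma-moderated model). The count of SLC25 events with an unadjusted p under 0.05, 12 in the report, was 3 with unmoderated dispersions, 70 with the pooled test, and 3 to 16 with 1 library left out. A single dispersion shared by all events of a type, an alternative chosen after seeing the data, called 125 events over all genes and 0 SLC25 events.

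The count of events whose groups do not overlap was 9 with all libraries and 20 to 40 with 1 left out, as fewer libraries overlap less by construction. SLC25A36 was the 1 gene past an adjusted p under 0.05, and its log2 fold change is under 1, so the count of genes was 0 with that fold limit and 1 with no fold limit. The count was 0 with no minimum of reads (SLC25A36 adjusted p = 0.0683), with scaling by the median of ratios (0.0747) and with reads summed over SE events (0.106), and 0 to 1 with 1 library left out; all these tests used limma. The median-of-ratios scaling put the median log2 fold change at -0.004 over all genes and 0.06 over SLC25 genes.

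With 1 library left out, the SLC25A40 acceptor differed by 7.57 to 9.68 points and the share of SLC25A3 exon 3A by 0.105 to 0.195 points, neither past the threshold. Among the events named by rule and reported, the differences that changed sign were the SLC25A3 balance of 3B and exon 4 (-1.80 to 0.776 points), the MXE balances of SLC25A33 exons 5 and 6 (-1.90 to 2.67) and SLC25A13 exons 3 and 4 (-1.51 to 1.84), and the 5′ untranslated exon of SLC25A40 (-0.635 to 6.53). For the events chosen after their values were seen, this was added later as PSI differences with no test. Those of SLC25A23 exon 8 (-0.168 to 4.04 points) and the SLC25A36 first alternative exon (-16.7 to 8.54) changed sign. Those of the SLC25A36 second alternative exon (6.51 to 16.9) and the SLC25A39 acceptor (-5.13 to -1.79) did not. The SLC25A33 exon 3 differences were -1.06 points (SE) and -0.869 points (MXE) without the first SAM68 library. SLC25A26 exon 2 ranged from -11.8 to -1.51 points. The cause of these changes was not tested. Depth limits the minor forms, many of which had fewer than 10 reads.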
